A study of Mus musculus with 13 samples.

Results

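The 26 genes described here encode enzymes of cholesterol synthesis and the proteins that regulate, or respond to, the sterol regulatory element-binding proteins (SREBPs). They were chosen by name for their place in this pathway, with earlier results of these data known, from the 49315 genes counted in each library, and all 26 were among the 20168 genes with enough counts to be tested. RNA-Seq had been performed on whole skin of the back at postnatal day 4 (P4) from 3 WT mice and 3 *K14Cre+Kctd1fl/flKctd15fl/fl* littermates (DKO), 1 library per mouse, to learn how gene expression in skin changes when keratinocytes lack both KCTD1 and KCTD15. The K14 promoter drives Cre in keratinocytes of the epidermis and its appendages, whereas the RNA came from all layers of the skin, so dermal, fat and muscle cells with intact *Kctd1* and *Kctd15* contributed to every value. The labels give the control mice only as WT and do not state whether any carried Cre or floxed alleles. The 7 epidermis libraries of the series, from mice of 3 weeks, held a count of 0 for every gene in the files used here and give no value for these genes.

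Cholesterol is made from acetyl-CoA through mevalonate, the isoprenoid building blocks, squalene and lanosterol, followed by a series of modifications of the sterol ring and side chain. The genes of this pathway share a transcriptional switch. When sterols are scarce, the escort protein SCAP carries SREBPs to the Golgi, where the site-1 protease (encoded by *Mbtps1*) and a partner protease release the transcription factor domain; when sterols are plentiful, INSIG proteins retain SCAP in the endoplasmic reticulum. In skin, cholesterol is needed for the lamellar lipids of the epidermal barrier, and sebocytes of the sebaceous gland are a further site of lipid synthesis.

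SREBPs bind sterol regulatory elements, which often lie close to binding sites of the CCAAT-box factor NF-Y. Promoter windows, from 250 bases before to 50 bases after the transcription start in RefSeq (GRCm38.p6), were found for 22 of the 26 genes, in 30 windows because some genes have more than 1 start. Both strands were searched for the sterol element core TCACNCCA and for CCAAT, which can share letters at their ends. The core was found in 3 of the 30 windows (10%), those of *Msmo1*, *Hmgcs1* and *Srebf2*, and in 4.36% of the 32851 windows of all genes. CCAAT was found in 19 of the 30 windows (63.3%), of 18 genes, and in 37.4% of all windows. All 3 windows with the core are shown, and they belong to a late enzyme, an early enzyme and a regulator. Whether the motifs go with the differences between DKO and WT was not tested. No core shares a letter with a CCAAT in them. They are written 5′ to 3′ on the strand of the gene, from 190 to 41 bases before the start, and capitals mark the core and each CCAAT or its reverse complement.
*Msmo1*, chr8:64733619-64733768, minus strand: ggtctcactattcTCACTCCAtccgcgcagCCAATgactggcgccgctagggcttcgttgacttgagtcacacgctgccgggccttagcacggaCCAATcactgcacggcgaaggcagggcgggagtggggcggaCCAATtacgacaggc
*Hmgcs1*, chr13:119690161-119690310, plus strand: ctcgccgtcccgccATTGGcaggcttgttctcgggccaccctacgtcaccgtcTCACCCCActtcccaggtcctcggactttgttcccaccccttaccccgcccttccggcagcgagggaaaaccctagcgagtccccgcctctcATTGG
*Srebf2*, chr15:82147079-82147228, plus strand: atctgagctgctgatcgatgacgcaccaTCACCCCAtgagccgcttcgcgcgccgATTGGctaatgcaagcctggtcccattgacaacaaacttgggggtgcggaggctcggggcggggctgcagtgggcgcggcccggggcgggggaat
In the *Msmo1* window the core began 177 bases before the start and was followed by CCAAT at 160, 96 and 55 bases before the start. In *Hmgcs1* the core began 137 bases before the start, and in *Srebf2* it began 162 bases before it. These letters were matched in the reference sequence only, and binding was not measured.

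The 6 libraries held 11263863 to 17643043 counts on genes, and values are given as normalized counts, that is, counts scaled to a common effective library size. Counts per gene do not show a floxed exon, so *Kctd1* and *Kctd15* could not check the labels. *Kctd1* was 432 ± 19.0 in WT and 742 ± 240 in DKO (SD, n = 3; adjusted p = 0.342 in edgeR's quasi-likelihood test), and *Kctd15* was 745 ± 15.5 and 1321 ± 189 (adjusted p = 0.107). Both genes were higher in every library labelled DKO than in every WT library, and every direction below rests on the labels. The library of DKO replicate 2 stood apart from the other 5. Relative to the WT mean, the median log2 ratio of its genes ran from -0.41 to 0.45 across 5 bins of genes, from the lowest to the highest GC content of their transcripts, against 0.04 to -0.10 in DKO replicate 1 and 0.04 to -0.08 in DKO replicate 3. Fold changes of named genes that moved by over 1.5 times without this library are therefore also given without it, and some after each library's dependence on GC content had been removed.

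Most genes of the synthesis pathway had lower values in P4 DKO skin than in WT skin. The SREBP genes *Srebf1* and *Srebf2* had means in DKO close to WT, with signs that turned on DKO replicate 2. Of the 18 enzymes, 17 had a log2 fold change below 0, with a median of -0.29. In 9 of the 18, all 3 DKO libraries lay below all 3 WT libraries, which was so for 5.96% of all genes tested. Among all 26 genes, 20 had a log2 fold change below 0 (47.1% of all genes tested). All DKO libraries lay below all WT libraries for 11 of the 26 and above them for 0 (5.96% and 7.24% of all genes tested). The median log2 fold change was -0.22 over the 26 genes and 0.02 over all genes tested.

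The differences were small, and no gene of the 26 was called by edgeR at an adjusted p under 0.05 with an absolute log2 fold change over 1, the thresholds of the study. By this rule 14 of 20168 genes were called (0.0694%), 6 of them lower in DKO (0.0298%). By DESeq2, which called 0.783% of the genes it tested, 0 of the 26 were called as well, and only *Msmo1* had an adjusted p under 0.05 there, as 1.07% of genes did. At an unadjusted p under 0.05 in edgeR, 9 of the 26 were lower in DKO and 0 were higher, against 2.54% and 4.96% of all genes tested. These 9 were *Acat2*, *Hmgcs1*, *Pmvk*, *Idi1*, *Fdps*, *Lss*, *Msmo1*, *Nsdhl* and *Insig1*. In bulk skin, fewer cells of a type and less RNA per cell cannot be told apart, which holds for every difference given here.

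**Figure D1:**
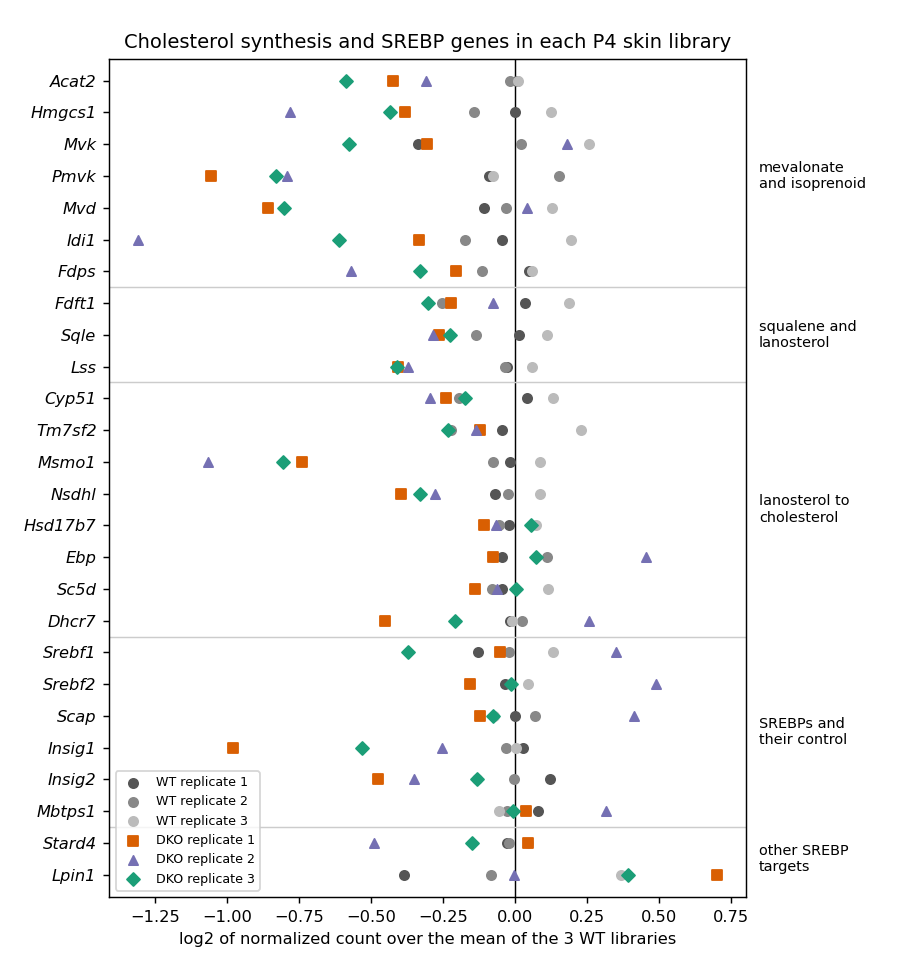
Each point is 1 library, plotted as the log2 of its normalized count over the mean of the 3 WT libraries (x axis) for each of the 26 genes (y axis, grouped by step). For *Msmo1*, *Pmvk* and *Hmgcs1* the DKO points lie to the left of all WT points, whereas for *Srebf2*, *Scap* and *Srebf1* DKO replicate 2 lies far to the right of the other DKO libraries.

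The early part of the pathway, from acetyl-CoA to farnesyl diphosphate, was represented by 7 genes, and all 7 had lower means in DKO. Their median log2 fold change was -0.48, and 5 of the 7 had all DKO libraries below all WT libraries (5.96% of all genes tested). *Hmgcs1* (ENSMUSG00000093930; chromosome 13, 119690462 to 119708086, plus strand) encodes HMG-CoA synthase, the enzyme that commits acetyl groups to the pathway. Its normalized count was 4397, 3983 and 4795 in the WT libraries, in the order of their replicate numbers, which every such series of values follows. The DKO libraries held 3372, 2557 and 3253. Every DKO library was below every WT library, and the lowest was DKO replicate 2. The DKO mean was 69.7% of the WT mean (log2 fold change -0.52 ± 0.14 SE, edgeR adjusted p = 0.341), and the log2 fold change was -0.40 without DKO replicate 2.

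*Pmvk* (ENSMUSG00000027952; chromosome 3, 89454541 to 89469013, plus strand) encodes phosphomevalonate kinase and had the lowest fold change of the 26. Its normalized count was 89.7, 106 and 90.7 in the WT libraries and 46.0, 55.2 and 53.8 in the DKO libraries. The WT and DKO values were well apart, but the gene was the second lowest of the 26 in expression, with raw counts of 35 to 54 in DKO. The log2 fold change was -0.88 ± 0.22, with a 95% interval of -1.37 to -0.39 (edgeR adjusted p = 0.281). *Idi1*, whose product interconverts the isoprenoid units isopentenyl and dimethylallyl diphosphate, was at 502, 460 and 594 in WT and at 411, 210 and 339 in DKO. The low value of 210 came from DKO replicate 2, and with 41.1% GC *Idi1* lay in the bin of lowest GC content, whose median was lowest in this library. Its log2 fold change was -0.70 ± 0.23 with all libraries (edgeR adjusted p = 0.458) and -0.46 without DKO replicate 2.

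*Acat2*, the acetyl-CoA acetyltransferase that makes acetoacetyl-CoA, was nearly constant among WT libraries at 567, 557 and 567 and was at 421, 456 and 375 in DKO. All DKO libraries were lower, with a mean of 74.0% of WT (log2 fold change -0.43 ± 0.14, edgeR adjusted p = 0.423). *Acat2* has a close paralog, *Acat3*, on the same chromosome, and how reads that map to both were counted is not given in the sources used here. *Fdps*, which encodes farnesyl diphosphate synthase, was at 486, 434 and 490 in WT and at 408, 317 and 374 in DKO (log2 fold change -0.36 ± 0.15, edgeR adjusted p = 0.617). Its groups lay apart too, though 1124 bases (26.7%) of its exons are shared with the annotated gene *Gm43738* on the same strand, and reads there cannot be assigned to one of them.

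*Mvk* (mevalonate kinase) and *Mvd* (diphosphomevalonate decarboxylase) were the pair of early genes whose groups overlapped. *Mvd* was at 356, 375 and 419 in WT and at 212, 395 and 220 in DKO, so that DKO replicates 1 and 3 were far below WT and DKO replicate 2 lay within the WT range. *Mvk* was at 308, 394 and 464 in WT and 314, 440 and 261 in DKO, where only DKO replicate 3 was below the WT range. Both have GC-rich transcripts (59.2% and 58.5% GC), of the kind that DKO replicate 2 held in excess. The log2 fold change of *Mvd* was -0.48 ± 0.24 with all libraries (edgeR adjusted p = 0.742), -0.82 without DKO replicate 2 (adjusted p = 0.0694) and -0.64 after correction for GC content (adjusted p = 0.135). That of *Mvk* was -0.20 ± 0.22 with all libraries (edgeR adjusted p = 0.939), -0.43 without DKO replicate 2 (adjusted p = 0.396) and -0.04 without DKO replicate 3.

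**Figure D2:**
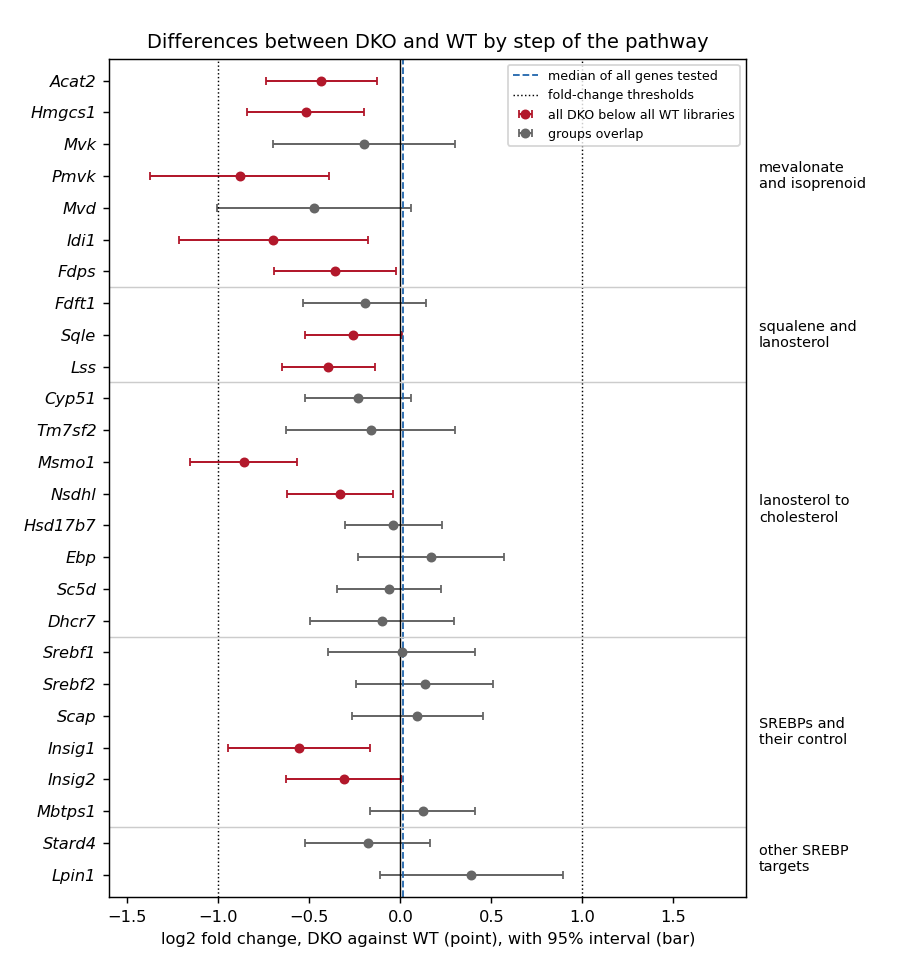
Points give the log2 fold change of DKO against WT (x axis) for each of the 26 genes (y axis), bars give its 95% interval, and red marks genes in which all DKO libraries lay below all WT libraries. All 7 genes of the mevalonate and isoprenoid steps lie to the left of 0, and no point reaches the dotted lines at a log2 fold change of -1 or 1.

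The 3 enzymes from farnesyl diphosphate to lanosterol had log2 fold changes of -0.40 to -0.20. *Lss*, the lanosterol synthase that closes the sterol rings, was among the least variable genes of the set, at 1333, 1325 and 1414 in WT and 1024, 1049 and 1023 in DKO. No DKO library came near the WT range, and the mean was 76.0% of WT (log2 fold change -0.40 ± 0.12, edgeR adjusted p = 0.352). *Sqle*, which encodes squalene epoxidase, was at 1912, 1722 and 2041 in WT and at 1576, 1553 and 1618 in DKO. These groups did not overlap, with a log2 fold change of -0.26 ± 0.12 (edgeR adjusted p = 0.682). *Fdft1*, which encodes squalene synthase, ranged from 722 to 980 in WT and from 700 to 818 in DKO, with overlapping groups. A stretch of 767 bases (26.8%) of the *Fdft1* exons overlaps *Ctsb* on the opposite strand, and whether strand was used in counting is not given in the sources used here.

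Among the 8 enzymes that turn lanosterol into cholesterol, *Msmo1* had the smallest p-value of the 26 genes. *Msmo1* (ENSMUSG00000031604; chromosome 8, 64718139 to 64733792, minus strand) encodes the methylsterol monooxygenase that begins removal of the methyl groups at carbon 4 of the sterol ring. Its normalized count was 2244, 2153 and 2410 in WT and 1361, 1085 and 1300 in DKO. The highest DKO library was far below the lowest WT library. The DKO mean was 55.0% of the WT mean (2269 ± 130 against 1249 ± 145, SD, n = 3), which gave a log2 fold change of -0.86 ± 0.13 (95% interval -1.15 to -0.57). The adjusted p was 0.0680 in edgeR and 5.43e-05 in DESeq2. In edgeR it was 0.0283 without DKO replicate 2, with a log2 fold change of -0.77, and 0.0148 after correction for GC content, where the DKO libraries came closer together at 1305, 1269 and 1261. It ranged from 0.0173 to 0.449 when 1 library at a time was left out.

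*Nsdhl* encodes the decarboxylating dehydrogenase that acts after MSMO1 in the same demethylation. It was at 578, 597 and 644 in WT and at 461, 501 and 483 in DKO, without overlap (log2 fold change -0.33 ± 0.13, edgeR adjusted p = 0.566). *Nsdhl* and *Ebp* lie on the X chromosome, and *Xist*, which is transcribed from the inactive X, had counts of 55712 in WT replicate 1, 57154 in DKO replicate 3 and 9 to 144 in the other 4. *Hsd17b7*, whose product completes the demethylation as a ketosteroid reductase, differed far less, at 1196, 1169 and 1276 in WT and 1125, 1159 and 1260 in DKO. The 95% interval of its log2 fold change ran from -0.31 to 0.23 around -0.04, which was -0.02 without DKO replicate 2.

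For the other 5 late enzymes the groups overlapped as well. *Cyp51* (lanosterol demethylase) was at 1584, 1346 and 1687 in WT and at 1304, 1255 and 1366 in DKO, a log2 fold change of -0.23 ± 0.13 (edgeR adjusted p = 0.790). *Sc5d* (sterol desaturase) had a log2 fold change of -0.06, and *Tm7sf2* (sterol C14 reductase), the lowest of the 26 in expression, had -0.16, with 532 bases (15.3%) of its exons shared with *Vps51* on the same strand. *Dhcr7*, the 7-dehydrocholesterol reductase, spread widely in DKO, at 836, 1366 and 988, around WT values of 1129, 1164 and 1136. Its log2 fold change was -0.10 with all libraries, -0.32 without DKO replicate 2 (adjusted p = 0.283) and 0.02 without DKO replicate 1. *Ebp*, the sterol isomerase, was the 1 enzyme with a higher mean in DKO, at 223, 249 and 218 in WT and 218, 315 and 242 in DKO. The high value was again DKO replicate 2, and the log2 fold change of 0.17 became 0.01 without it.

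Of the 6 genes of the SREBP switch, 4 had a log2 fold change above 0 and the median was 0.05, but this rested on DKO replicate 2. Without that library 5 of 6 were below 0 with a median of -0.15, and after correction for GC content 3 of 6 were below 0 with a median of -0.06. *Srebf2* (ENSMUSG00000022463; chromosome 15, 82147266 to 82205376, plus strand) encodes SREBP2, the main activator of the cholesterol genes. It was at 2977, 3021 and 3151 in WT and at 2736, 4280 and 3019 in DKO. DKO replicate 2 was high and the other two DKO libraries lay below or within the WT range. The log2 fold change, 0.13 with all libraries (95% interval -0.24 to 0.51, edgeR adjusted p = 0.941), was -0.08 without DKO replicate 2 and 0.02 after correction for GC content. Whether *Srebf2* mRNA had a part in the lower values of the other genes was not tested.

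*Scap*, which encodes the SREBP escort, and *Srebf1*, which encodes the SREBP1 isoforms that act mainly on fatty acid genes, showed the same single high library. *Scap* was at 1146, 1202 and 1090 in WT and 1053, 1527 and 1087 in DKO. *Srebf1* was at 1348, 1453 and 1615 in WT and 1420, 1880 and 1138 in DKO. Groups overlapped for both, and their signs turned without DKO replicate 2, from a log2 fold change of 0.09 to -0.09 for *Scap* and from 0.01 to -0.20 for *Srebf1*, and the smallest of these adjusted p was 0.577. A stretch of 985 bases (13.2%) of the *Scap* exons overlaps a gene on the opposite strand. *Mbtps1*, which encodes the site-1 protease, was at 2597, 2413 and 2364 in WT and 2525, 3061 and 2445 in DKO (log2 fold change 0.12, 95% interval -0.17 to 0.41; 0.02 without DKO replicate 2).

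The INSIG genes were the 2 of the switch with a log2 fold change below 0 in the fit to all libraries. Without DKO replicate 2, 5 of the 6 were below 0, and genes of the switch were not tested against each other. INSIG1 and INSIG2 hold SCAP in the endoplasmic reticulum, and *Insig1* is itself a well-known SREBP target. *Insig1* was closely grouped in WT at 1752, 1682 and 1722 and was at 872, 1441 and 1190 in DKO. All DKO libraries were lower, but by unequal amounts, and the lowest was DKO replicate 1. The mean was 67.9% of WT (log2 fold change -0.56 ± 0.17, edgeR adjusted p = 0.422; -0.73 and adjusted p = 0.107 without DKO replicate 2). *Insig2* was at 1129, 1035 and 948 in WT and at 747, 813 and 948 in DKO, with a log2 fold change of -0.31 ± 0.14 (edgeR adjusted p = 0.673). The lowest WT and highest DKO libraries of *Insig2* were equal to within 1 normalized count.

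The remaining targets of SREBPs were *Stard4*, a carrier of cholesterol between membranes, and *Lpin1*, a phosphatidate phosphatase. Neither had groups that lay apart. *Stard4* was at 891, 895 and 938 in WT and 937, 648 and 819 in DKO (log2 fold change -0.18 ± 0.15, edgeR adjusted p = 0.912; -0.04 without DKO replicate 2). *Lpin1* had the highest fold change of the 26, at 603, 744 and 1018 in WT and 1283, 786 and 1034 in DKO (log2 fold change 0.39 ± 0.23, edgeR adjusted p = 0.810; 0.20 without DKO replicate 1). The libraries with the highest *Lpin1* in each group, WT replicate 3 and DKO replicate 1, were also those with the highest summed level of adipocyte markers (605 and 975 RPKM, with 388 to 493 in the other 4 libraries). In DKO replicate 3, *Lpin1* was at 1034 while the adipocyte sum was the lowest of all, at 388 RPKM. In DKO replicate 2 they were at 786 and 493 RPKM. The part of fat in these values was not tested.

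Compared per length, as RPKM (counts divided by counted exon length and effective library size), the genes covered a wide range of levels in WT skin. *Hmgcs1* was highest at 89.5 ± 8.28 RPKM, followed by *Srebf2* at 40.3 ± 1.19, *Insig1* at 36.6 ± 0.745 and *Msmo1* at 24.3 ± 1.39 (SD, n = 3), and each of these lay above the next in every WT library. From *Msmo1* down to *Mbtps1* at 15.4 RPKM, neighbours in the order overlapped between WT libraries. At the lower end, *Ebp* at 6.56, *Pmvk* at 3.67 and *Tm7sf2* at 1.95 RPKM did not overlap each other. The summed level of the 26 genes was 445 to 495 RPKM in the WT libraries and 376 to 412 RPKM in the DKO libraries, without overlap. In DKO, *Msmo1* stood at 13.4 ± 1.55 RPKM, below the DKO means of *Cyp51* (19.5), *Sqle* (18.8) and *Fdft1* (17.3), all of which it exceeded in the WT means.

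**Figure D3:**
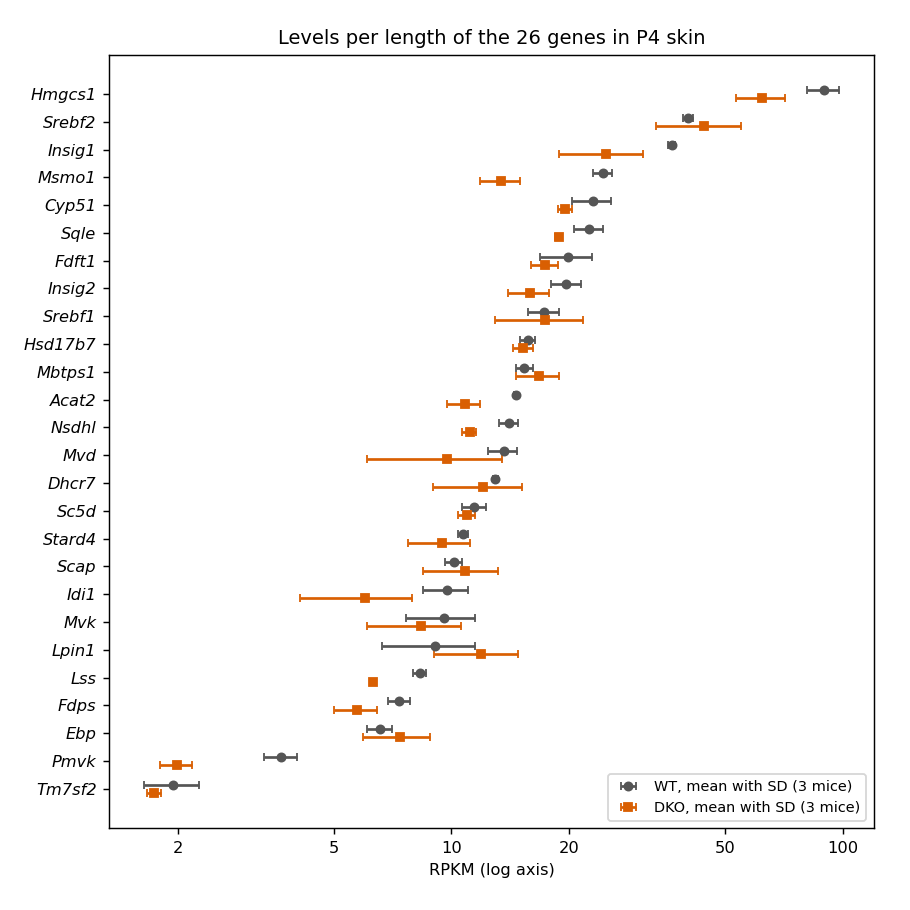
Level of each gene (y axis, ordered by the WT mean) in RPKM on a log axis (x axis), as the mean with SD of 3 WT and 3 DKO mice. *Hmgcs1* is the most abundant in both groups (89.5 and 62.4 RPKM), and *Msmo1* is at 24.3 RPKM in WT and 13.4 RPKM in DKO.

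The GC content of a transcript moved with its value in DKO replicate 2 and is shown for the 26 genes beside all genes. With the correction for GC content, added after the data had been seen, 12 genes of the set were lower at an unadjusted p under 0.05 (3.92% of all genes) and 0 were higher. The 12 were the 9 named above with *Mvd*, *Sqle* and *Insig2*. Groups lay apart, with DKO lower, for 12 of the 26 (7.66% of all genes) and, with DKO higher, for 0 (8.63%). *Msmo1* alone of the 26 then had an adjusted p under 0.05 (0.194% of all genes). Without DKO replicate 2, 23 of the 26 had a log2 fold change below 0, 12 were lower at an unadjusted p under 0.05 (5.74% of all genes), and 1 was higher (*Lpin1*, log2 fold change 0.56, adjusted p = 0.319). There too, only *Msmo1* of the 26 had an adjusted p under 0.05 (0.211% of all genes).

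**Figure D4:**
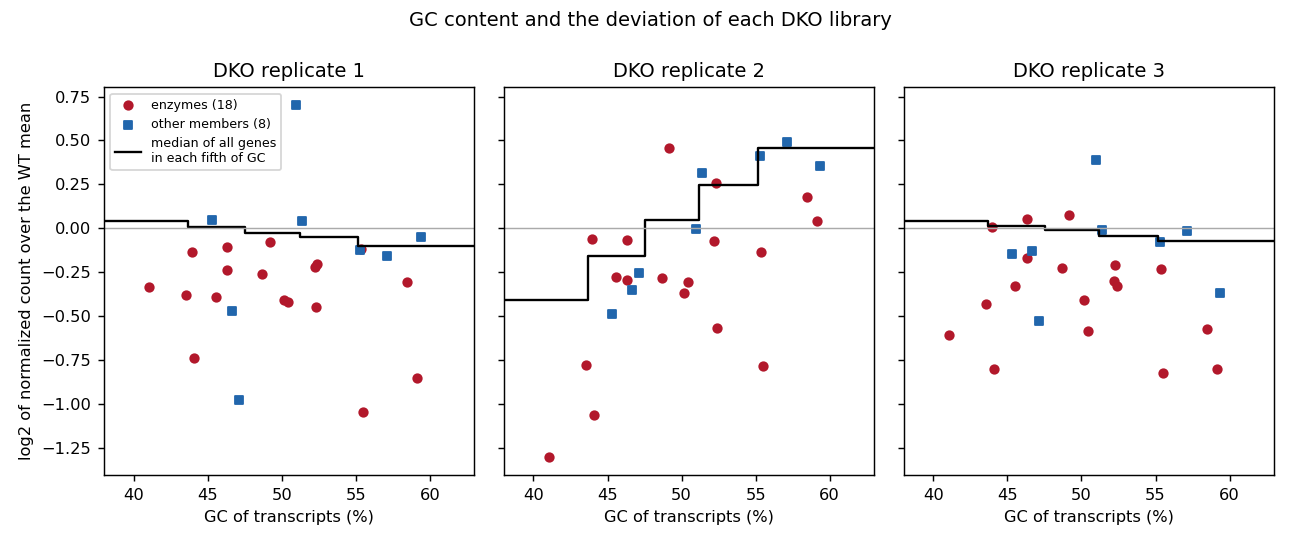
Each panel is 1 DKO library: points give the log2 of normalized count over the WT mean (y axis) for the 18 enzymes and the 8 other genes of the set against GC content of their transcripts in percent (x axis), and the step line is the median of all genes in each of 5 bins of GC content. The line climbs from -0.41 to 0.45 in DKO replicate 2 and is nearly level in the other panels, and most enzymes lie below it in each panel.

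Neighbouring pathways were described from lists taken beside the 26 genes. Of 10 fatty acid genes that SREBPs also drive, 9 had a log2 fold change below 0, with a median of -0.31. In 6 of the 10, all DKO libraries lay below all WT libraries (5.96% of all genes tested). *Elovl6*, the elongase that extends palmitate, was the only one called by the edgeR test used throughout. It fell from 7853, 8602 and 6723 in WT to 1901, 3041 and 2401 in DKO (log2 fold change -1.66 ± 0.18, edgeR adjusted p = 0.0155), a call that was lost without WT replicate 1, 2 or 3 (adjusted p = 0.173, 0.125 and 0.0642) and without DKO replicate 3 (adjusted p = 0.107). *Scd1*, the stearoyl-CoA desaturase, was at 21992, 24603 and 21261 in WT and at 6916, 11432 and 9105 in DKO (log2 fold change -1.31 ± 0.19, edgeR adjusted p = 0.0617). It missed the threshold there and was called by DESeq2 (adjusted p = 2.65e-08). By edgeR it was called when GC content was corrected for (adjusted p = 0.0337) and when muscle markers were left out of library sizes (0.0407). It was also called when scaled by RLE (0.0478) or by totals alone (0.0258) and when low genes were kept (2.37e-07). Without DKO replicate 1 (0.0106) or 2 (0.0143) it was called too. *Scd1* missed the edgeR threshold again when each gene needed 10 or more counts per library (adjusted p = 0.0520). The same was so without WT replicate 1, 2 or 3 (0.310, 0.286 and 0.225) and without DKO replicate 3 (0.161). *Acss2*, which makes acetyl-CoA from acetate, differed less and in the same direction (log2 fold change -0.51 ± 0.16, edgeR adjusted p = 0.423). Both *Elovl6* and *Scd1* are strongly expressed in sebaceous glands.

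Differences between these lists were not tested. Of 20 partners and controllers of sterol synthesis, 10 had a log2 fold change below 0, the median was -0.0049 and 0 were called. *Gramd1b*, which carries cholesterol from the plasma membrane to the endoplasmic reticulum, was higher in every DKO library, at 663, 396 and 406 against 225, 278 and 352 in WT (log2 fold change 0.77 ± 0.24, edgeR adjusted p = 0.412; 0.48 without DKO replicate 1). *Lbr*, which shares sterol C14 reductase activity with TM7SF2, had a log2 fold change of -0.28 (adjusted p = 0.741), and *Tmem33*, an endoplasmic reticulum membrane protein, had -0.24 (adjusted p = 0.810; -0.14 without DKO replicate 2). Of 9 genes of the isoprenoid branches, which use farnesyl diphosphate for ubiquinone, dolichol and prenylated proteins, 8 had a log2 fold change below 0 with a median of -0.12, and all groups overlapped. Those with the smallest p-values were *Pdss1* (-0.23), *Coq2* (-0.15) and *Pggt1b* (-0.14), with adjusted p of 0.891, 0.921 and 0.937, and without DKO replicate 2 their log2 fold changes were -0.08, -0.23 and -0.01. Of 6 liver X receptor genes and targets, which respond to sterol excess, 2 had a log2 fold change below 0, the median was 0.07 and all groups overlapped, with *Lpcat3* at -0.22, *Smpdl3a* at -0.19 and *Mylip* at 0.12 (-0.37 for *Lpcat3* and 0.03 for *Mylip* without DKO replicate 2).

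The cell type markers of skin also differed between the groups. Of 13 sebaceous gland markers tested, 11 had a log2 fold change below 0 and 7 had all DKO libraries below all WT libraries (5.96% of all genes tested). The median log2 fold change of the 13 markers was -0.84. Their summed level was 463 to 565 RPKM in WT and 294 to 468 RPKM in DKO, and the fourteenth, *Gal*, had a normalized count of at most 2.99 in any library. Of 14 skeletal muscle markers, 13 had all DKO libraries above all WT libraries (7.24% of all genes), with a median log2 fold change of 1.09 and sums of 783 to 908 RPKM in WT and 1362 to 2679 RPKM in DKO. Epidermal keratinocyte markers were abundant in all libraries, with sums of 2984 to 3111 RPKM in WT and 3643 to 4706 RPKM in DKO. Their median log2 fold change was 0.14 over 10 genes. Of these, 2 had all DKO libraries above all WT libraries (7.24% of all genes tested). They were *Krt1* (means of 725 RPKM in WT and 1255 in DKO) and *Krt10* (913 and 1270). *Dsg1a* had all DKO libraries below all WT libraries (5.96% of all genes tested), and the groups of the other 7 overlapped. The medians were 0.24 for 10 adipocyte markers, 0.17 for 7 dermal fibroblast markers and -0.15 for 6 red blood cell markers. The part of these cell types in the lower values of the cholesterol genes was not tested. With the muscle markers left out of the library sizes, 21 of the 26 genes had a log2 fold change below 0. *Msmo1* then had an edgeR adjusted p of 0.0644. That setting changed only the scaling of the libraries, so it cannot show what part the mix of cells had.

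**Figure D5:**
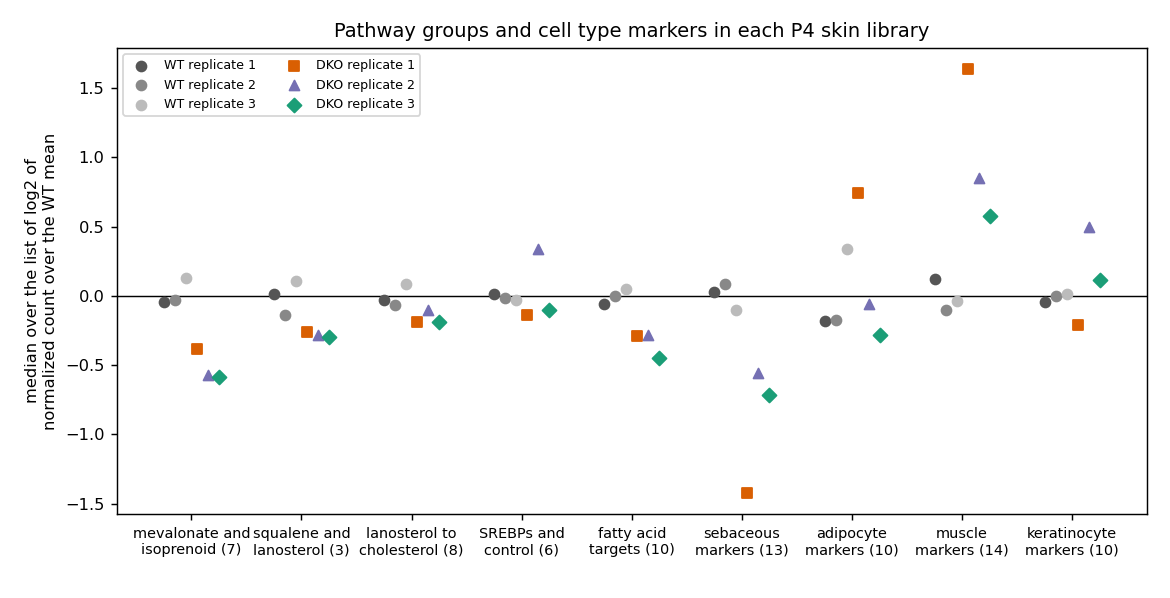
For each group of genes (x axis, number of genes tested in brackets), points give the median over its genes of the log2 normalized count over the WT mean (y axis) in each of the 6 libraries. The mevalonate and sebaceous gland medians of all 3 DKO libraries lie below those of all WT libraries, the muscle medians lie above, and in the SREBP control group DKO replicate 2 is highest at 0.33 and the other DKO libraries lie below the WT libraries.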

How the data were processed

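Total RNA was depleted of rRNA, prepared with the NEBNext Ultra II kit and sequenced as paired-end reads. Per the submitters' processing notes, Trimmomatic 0.36, STAR 2.5.2b and featureCounts (Subread 1.5.2) were used, and GRCm38 is among the builds named. The authors deposited raw, unnormalized counts for each gene, and 48970 of the 49315 identifiers (99.3%) were matched to a symbol. Samples were grouped by their labels, and replicates were numbered in accession order.

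Genes were filtered with filterByExpr, scaled by TMM and tested with the quasi-likelihood F test of edgeR 4.0.16 in R 4.3.3, with Benjamini-Hochberg adjustment over 20168 genes and no covariate. DESeq2 1.42.0, the tool of the study, was an alternative. SE was the absolute log2 fold change over the square root of F. A floor of 3 counts corresponds to 0.170 to 0.266 CPM. With 3 against 3 libraries the smallest exact permutation p for a single value is 0.1. On simulated counts edgeR recovered 200 of 200 genes changed by a log2 fold change of 2, with 4 other calls among 19856 genes. The log2 fold changes of the cholesterol genes described here were smaller, from -0.88 to 0.39. Recovery of changes of that size was not simulated, so the simulation cannot tell how many of them would be missed.

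The 26 genes and all lists were chosen with earlier results of these data known. All 26 are named, together with the called genes and the 3 genes of smallest p-value in each of the 4 other pathway lists. Correction for GC content subtracted, in each library, a lowess curve of the log ratio on the GC content of GENCODE transcripts, for 20107 genes. It and DESeq2 with the label number as a block were chosen after seeing the data. Other alternatives were RLE size factors, total counts, no filter, at least 10 counts in every library, the label number as a block, library sizes without muscle markers and each library left out in turn.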

Additional observations from a re-analysis of the deposited data

How the results depend on the processing

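No gene of the 26 was called under any alternative run. Of 20168 genes, edgeR called 14. The number of called genes was 154 with DESeq2, 22 with total counts, 210 with no filter on low counts, 23 with GC content correction and 2 to 36 when 1 library at a time was left out (3 without WT replicate 1, 2 without WT replicate 2, 2 without WT replicate 3, 36 without DKO replicate 1, 33 without DKO replicate 2 and 4 without DKO replicate 3). Leaving out 1 library gave 19 to 23 genes of the set with a log2 fold change below 0 and medians from -0.32 to -0.17, the lowest without WT replicate 2. The fold change of *Srebf1*, 0.01 in the report, turned to -0.0085 with DESeq2, -0.0080 with RLE size factors, -0.042 with total counts, -0.020 with no filter, -0.010 with at least 10 counts in every library, -0.014 with library sizes without muscle markers, -0.0060 with DESeq2 and the block, and -0.13 with GC content correction, and ranged from -0.20 to 0.17 with 1 library left out. *Sc5d* turned to 0.0073 with GC content correction, *Dhcr7* to 0.025 without DKO replicate 1, and *Srebf2* to -0.079 and *Scap* to -0.094 without DKO replicate 2. With 1 library left out, these ranged from -0.32 to 0.025 for *Dhcr7*, from -0.079 to 0.24 for *Srebf2* and from -0.094 to 0.17 for *Scap*. *Elovl6* had an adjusted p of 0.173, 0.125 and 0.0642 without WT replicates 1, 2 and 3 and 0.107 without DKO replicate 3. The causes were not tested. The label number, which the labels do not tie to a litter, was used as a replicate block: edgeR then called 35 genes and DESeq2 150, and *Msmo1* had adjusted p of 0.0338 and 1.56e-05, with a log2 fold change of -0.86 in edgeR. *Scd1* was called under the block too (adjusted p = 0.0137 and 9.06e-13). Deviations from the group mean correlated over genes with r = 0.23 between WT replicate 3 and DKO replicate 1, the libraries of number 40972. Between WT and DKO libraries of number 47347, r was -0.02 to 0.17, and between libraries of unlike number it was -0.15 to -0.10. Deviations within a group cancel out, so these values depend on each other and cannot show pairing by number. In DKO, the raw counts of 35 to 54 for *Pmvk* limit its precision.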
